A study of Mus musculus with 12 samples.

Results

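The genes described here are 4 genes known from fat cells, Adipoq, Cfd, Scd1 and Plin4, and 2 major urinary protein genes, Mup15 and Mup16, in the left ventricle (LV) of the mouse heart. The arrays carry probe identifiers without gene names, and names came from the study's list of changed genes. The members were chosen by measured values, since a probe takes its name from the entry of that list whose fold and p value equal those computed from the deposited log2 values, within a relative tolerance of 2e-05. All 963 entries of that list matched exactly 1 probe each, which named 892 probes for 863 gene symbols, and each of the 6 genes had 1 named probe among the 54232 probes tested. Only genes that the study listed as changed somewhere can have a name here. Below, fl/fl stands for control mice and cKO for mice with miR-150 deleted in cardiomyocytes, after a sham operation or myocardial infarction (MI). Adipoq and Mup15 were named through MI fl/fl against sham fl/fl and through MI cKO against MI fl/fl, Mup16 and Scd1 through the first of these, Cfd through the second, and Plin4 through sham cKO against sham fl/fl. In the comparison that named it, a gene's values are a description without a test.

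Adipoq encodes adiponectin, a hormone that fat cells secrete into the blood. Cfd encodes complement factor D, also called adipsin, the serine protease that starts the alternative complement pathway and is made in large amounts by fat. Scd1 is the stearoyl-CoA desaturase that makes monounsaturated fatty acids, and Plin4 is a perilipin, a protein that coats lipid droplets. Both are at work in fat cells and also in other tissues. The heart carries fat on its outer surface, and fat also lies around it in the chest. Major urinary proteins are small lipocalins that bind pheromones and are best known as liver products excreted in the urine. Their genes form a cluster of near-identical copies on mouse chromosome 4, so a probe for a copy may also read RNA from its neighbours, and values for Mup15 and Mup16 are uncertain in this respect.

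LV RNA came from 12 C57BL/6J mice in 4 groups of 3, with 1 mouse per array. Mice carried either both floxed miR-150 alleles without Cre (miR-150 fl/fl) or the same alleles with alpha-MHC-Cre (miR-150 cKO), in which the alpha-MHC promoter drives Cre in cardiomyocytes. The control groups therefore share the floxed alleles but not the Cre transgene. Hearts were taken 4 weeks after a sham operation or after MI, made by tying off the left anterior descending coronary artery for good. Each group had 1 male and 2 females. Ages at harvest were 15 weeks in the 3 MI cKO mice, 14 to 15 in sham cKO, 14 in MI fl/fl and 13 to 14 in sham fl/fl, so age partly followed genotype.

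The file headers place the arrays in 2 scans. Scan 1 held the 3 MI cKO arrays and MI fl/fl replicate 3, and scan 2 held the other 8, so the scan nearly coincides with MI in cKO. The headers also give each array a row. Sham cKO replicates 2 and 3 and MI fl/fl replicates 1 and 2 were in row 2, and all other arrays in row 1. Between 74.1% and 90.3% of probes were well above background on an array, with the lowest shares on sham cKO replicates 2 (74.1%) and 3 (76.1%). Correlations between arrays ran from 0.969 to 0.991. Levels below are log2 spot signals relative to the 75th percentile of the same array, so a value of 0 means a signal equal to that percentile and a step of 1 is a doubling. Levels of different probes are not comparable with each other. The number of arrays limits the precision.

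Promoter sequences of the Mup genes differ in how alike they are. RefSeq annotation of GRCm38.p6 lists 22 Mup genes, and in gene order on chromosome 4 Mup15 is followed by Mup16, Mup17, Mup18 and Mup19. All 6 genes matched RefSeq by accession, and promoters (250 bases before to 50 after the gene start) were at hand for Adipoq, Cfd, Plin4 and Mup15, as well as for Mup19, the only other major urinary protein gene with a named probe. Capitals in the first 2 sequences mark the longest run that Mup15 (chr4:61439655-61439954, minus strand) and Mup19 (chr4:61782175-61782474, minus strand) share without a mismatch. Capitals in the third, from Adipoq (chr16:23146286-23146585, plus strand), mark CCAAT on either strand.
Mup15: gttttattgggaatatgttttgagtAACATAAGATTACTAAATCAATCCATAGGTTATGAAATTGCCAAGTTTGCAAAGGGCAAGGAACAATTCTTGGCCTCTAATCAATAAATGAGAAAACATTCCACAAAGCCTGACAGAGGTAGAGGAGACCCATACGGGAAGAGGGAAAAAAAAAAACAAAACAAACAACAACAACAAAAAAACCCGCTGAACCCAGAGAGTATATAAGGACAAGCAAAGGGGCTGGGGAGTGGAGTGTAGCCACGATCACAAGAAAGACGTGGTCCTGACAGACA
Mup19: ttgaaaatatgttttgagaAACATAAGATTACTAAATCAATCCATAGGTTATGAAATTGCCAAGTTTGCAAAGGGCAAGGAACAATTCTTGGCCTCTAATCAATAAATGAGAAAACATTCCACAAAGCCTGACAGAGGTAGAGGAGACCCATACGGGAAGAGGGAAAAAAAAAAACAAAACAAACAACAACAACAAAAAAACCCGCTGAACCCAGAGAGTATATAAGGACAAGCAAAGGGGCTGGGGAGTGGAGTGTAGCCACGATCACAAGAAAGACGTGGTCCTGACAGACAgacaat
Adipoq: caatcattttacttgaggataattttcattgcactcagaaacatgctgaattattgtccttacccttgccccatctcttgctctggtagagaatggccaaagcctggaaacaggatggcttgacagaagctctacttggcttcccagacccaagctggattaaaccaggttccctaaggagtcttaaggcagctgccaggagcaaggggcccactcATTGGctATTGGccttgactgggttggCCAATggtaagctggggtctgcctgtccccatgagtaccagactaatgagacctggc
The shared run is 275 bases long. In a global alignment the Mup15 promoter was 98% identical to that of Mup17, 95.1% to Mup19 and 93.4% to Mup18, but 65.1% to Mup3, 62% to Mup21 and 47.5% to Mup7, the lowest of the Mup promoters at hand. It was 46.7% identical to that of Adipoq, 46.1% to Cfd and 41.9% to Plin4.

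Motifs were searched as letters on both strands. TATAAA was absent from the promoters of Adipoq, Cfd, Plin4, Mup15 and Mup19 and occurs in 13.6% of all 32851 mouse promoters of the same length. The nuclear receptor half-site AGGTCA was absent from all 5 and occurs in 16.3%. The letters TTGCNNAA, of the kind that C/EBP factors bind, were absent from all 5 and occur in 10.8%. The shorter TATAA, part of TATAAA and searched after the sequences had been read, occurred in Mup15, Mup19 and Plin4 and in 24.9% of all promoters. CCAAT, also searched then, occurred 3 times in Adipoq, was present in Mup15 and Plin4, absent from Mup19 and Cfd, and occurred in 37.4% of all promoters. A match is only a match of letters.

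Adipoq was well above background on all 12 arrays. In sham fl/fl hearts its log2 level was -3.13, -1.40 and -2.20 on replicates 1 to 3, and in sham cKO hearts it was -0.48, -2.58 and 0.01. After MI it was -0.51, 1.5 and -0.50 in fl/fl and -2.25, -3.33 and -2.64 in cKO. The 3 MI fl/fl arrays lay above every sham fl/fl array and above every MI cKO array, whereas the sham cKO arrays overlapped all 3 other groups. The group means ± SD (n = 3) were ordered MI fl/fl (0.17 ± 1.16), sham cKO (-1.02 ± 1.38), sham fl/fl (-2.24 ± 0.87) and MI cKO (-2.74 ± 0.55), and neighbouring means differed by less than the larger of their SDs. In bulk LV tissue, fewer cells of a type and less RNA per cell cannot be told apart.

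Cfd ran over a narrower range and was also well above background on all 12 arrays. Its log2 level was -3.03, -2.37 and -2.63 in sham fl/fl and -2.34, -2.43 and -2.28 in sham cKO. After MI it was -2.28, -1.55 and -2.47 in fl/fl and -3.04, -3.03 and -2.87 in cKO. The 3 MI cKO arrays were lower than all arrays of both sham cKO and MI fl/fl, and overlapped sham fl/fl. The order of the group means was that of Adipoq, from -2.10 ± 0.48 (SD, n = 3) in MI fl/fl to -2.98 ± 0.10 in MI cKO.

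Scd1 had a different order of groups. Its log2 level was 2.25, 3.16 and 2.60 in sham fl/fl, against 3.20, 3.25 and 3.84 in sham cKO. After MI it was 3.71, 3.49 and 3.36 in fl/fl and 3.01, 3.43 and 3.51 in cKO. Sham fl/fl hearts were low, with a mean of 2.67 ± 0.46 (SD, n = 3), and the other 3 groups had means of 3.32 to 3.52 and overlapped each other. The margin to sham cKO was small, 3.20 against 3.16, and sham fl/fl overlapped MI cKO, whose lowest array was at 3.01.

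Plin4 was the steadiest of the 6 genes within groups. Its log2 level was -1.0, -1.20 and -1.13 in sham fl/fl and -1.94, -1.81 and -1.62 in sham cKO. After MI it was -1.5, -1.34 and -1.37 in fl/fl and -1.72, -1.58 and -1.38 in cKO. Sham fl/fl, the group with the lowest Scd1, had the highest Plin4 (-1.11 ± 0.10, SD, n = 3), and sham cKO had the lowest (-1.79 ± 0.16).

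Mup15 had measured values from -5.47 to 1.45 on the log2 scale over the 12 arrays, the lowest of them not well above background. It was not well above background on any sham fl/fl array, where the measured values were -5.47, -4.87 and -5.00. In sham cKO it was -2.32 and -0.51 on replicates 1 and 3, and not well above background on replicate 2 (-4.80). After MI the probe was well above background on all arrays, with -1.86, 1.45 and -1.88 in fl/fl and -3.50, -4.68 and -4.80 in cKO. That call depends on the array, since a level of -4.80 passed it on MI cKO replicate 3 but not on sham cKO replicate 2. The highest array, MI fl/fl replicate 2, was also the highest for Adipoq and Cfd.

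Mup16 followed Mup15 array by array. Its log2 level was -5.03, -4.21 and -4.32 in sham fl/fl and -2.51, -4.70 and -0.47 in sham cKO, with replicate 1 of the former and replicate 2 of the latter not well above background. After MI it was -1.68, 1.41 and -1.85 in fl/fl and -3.0, -3.79 and -4.11 in cKO. Mup19 was highest on the same array, and its probe was well above background on all 12 arrays, with lowest, median and highest log2 levels of -3.46, -2.82 and 1.58. With signals that may be shared between copies, the 3 probes are not 3 independent measurements.

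**Figure D1:**
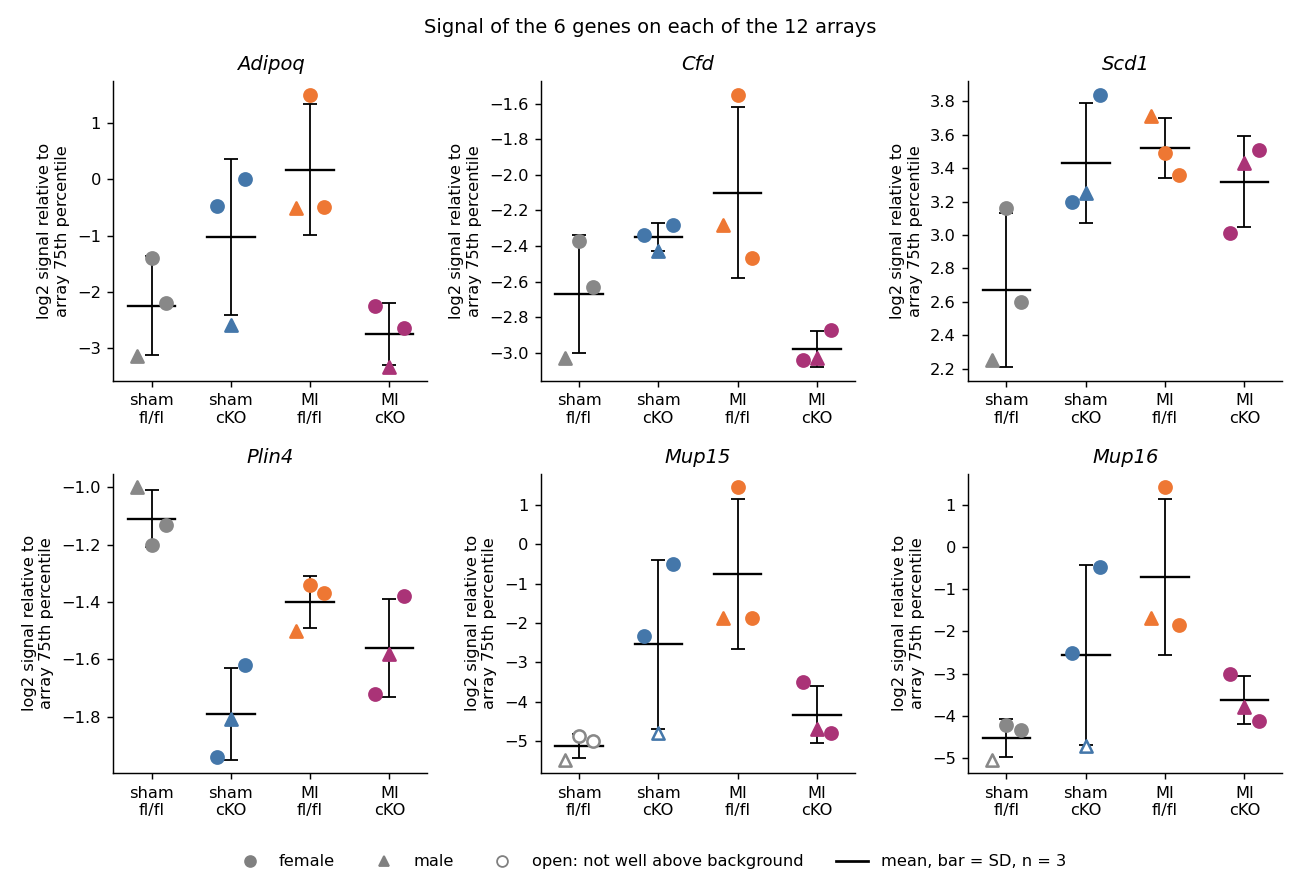
Log2 signal relative to the array's 75th percentile (y axis) of each gene on each array, by group (x axis); triangles are males, circles females, open symbols arrays where the probe was not well above background, lines the group mean and bars the SD of 3 arrays. Adipoq, Mup15 and Mup16 are highest on MI fl/fl replicate 2, at 1.5, 1.45 and 1.41, and Plin4 is highest in the sham fl/fl group.

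Removal of miR-150 from cardiomyocytes without infarction was examined by comparing sham cKO with sham fl/fl. A probe is said to be past the limits when its fold was at least 1.5 and its unadjusted p in limma was under 0.05. Of the 5 genes not named through this comparison, Scd1 and Mup15 were past the limits, both higher in cKO, where 2.75% of all probes tested were past the limits and 0.636% were so and higher. Both were named through MI fl/fl against sham fl/fl, which uses the same sham fl/fl arrays. Their calls here are therefore not independent of the naming. Scd1 differed by 0.76 on the log2 scale (SE 0.25, 3 arrays against 3), with an adjusted p of 0.512 in limma over all probes. Mup15 was at least 3.66-fold higher, taking the lowest signal well above background on each sham fl/fl array as the bound, with a limma adjusted p of 0.528. The probe was well above background on 2 of the 3 sham cKO arrays, and the figure takes the other, replicate 2, at its measured value. No probe of the array passed an adjusted p of 0.05 in limma in this comparison, and 4976 had an unadjusted p under 0.05.

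These calls depended on single arrays. Without sham cKO replicate 3 the Mup15 bound dropped to 1.81-fold and neither Mup15 nor Scd1, at 0.56, passed the limits. Scd1 did not pass them without sham fl/fl replicate 1 either (0.55). Mup15 did not pass them without any 1 of the 3 sham fl/fl arrays or without sham cKO replicate 1. Its fitted differences were then 2.39 to 2.69, close to the 2.57 with all arrays. Differences for Adipoq (1.23, SE 0.74, limma, adjusted p = 0.611), Cfd (0.33, SE 0.22, limma, adjusted p = 0.642) and Mup16 (1.96, SE 1.04, limma, adjusted p = 0.586) were not past the limits. Without sham cKO replicate 2, the male that was low for all 3 of Adipoq, Mup15 and Mup16, Adipoq differed by 2.01 and Mup16 by 3.03, and both then passed the limits. That array also had the lowest share of probes well above background, 74.1%. Replicate 3, the highest of its group for these 3 genes, had the next lowest, 76.1%. Both were in row 2, and all sham fl/fl arrays were in row 1. What the row contributed was not tested. Adipoq also passed them with sex as a covariate (1.23, SE 0.49, limma, adjusted p = 0.5), as did Adipoq (1.57) and Mup16 (2.78) in the female arrays alone. Plin4, named through this comparison, was lower in cKO by 0.68 on the log2 scale, which is 1.6-fold, with no overlap between the groups, as in 10.8% of all probes.

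After MI in fl/fl mice, 4 of the 6 genes were past the limits against sham fl/fl, all higher, where 1.25% of all probes were past the limits. All 4 were named through this comparison, so the count is a description. Adipoq was 5.32-fold higher, Scd1 1.8-fold, Mup16 14-fold and Mup15 at least 12.6-fold. When MI fl/fl replicate 2 was left out, the Mup15 bound was 5.84-fold and the log2 difference of Adipoq was 1.74 in place of 2.41, with the other arrays still above every sham array. The log2 difference of Mup16 was then 2.75 in place of 3.81, and its probe was not well above background on 1 of the 3 sham fl/fl arrays. The 2 genes not named through this comparison were Cfd and Plin4. The comparison that named Cfd uses the same MI fl/fl arrays, and the one that named Plin4 the same sham fl/fl arrays. Neither value is therefore independent of the naming. Cfd was higher by 0.58 (SE 0.22), a 1.49-fold difference just under the fold limit with overlapping groups and a limma adjusted p of 1. With scan as a block it differed by 0.76 and passed the limits. Plin4 was lower by 0.29 (SE 0.12, limma, adjusted p = 1), under the fold limit though the groups did not overlap, as was so for 8.6% of all probes.

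MI in cKO mice was compared with sham cKO, a comparison through which none of the 6 genes was named, although its arrays also enter the comparisons that named them. Adipoq and Cfd were past the limits and both were lower after MI, where 6.35% of all probes were past the limits and 1.75% were so and lower. Adipoq was lower by 1.72 on the log2 scale, which is 3.3-fold (SE 0.74, 3 arrays against 3), with a limma adjusted p of 0.222 and overlapping groups. Cfd was lower by 0.63, 1.55-fold (SE 0.22, limma, adjusted p = 0.153), and its groups did not overlap, as in 28.4% of all probes. At the adjusted level 1139 probes, 2.1% of those tested, passed 0.05 in this comparison, and none of the 6 genes was among them.

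Mup15 (-1.78, SE 1.07, limma, adjusted p = 0.365), Mup16 (-1.07, SE 1.04, limma, adjusted p = 0.58), Scd1 (-0.11, SE 0.25, limma, adjusted p = 0.825) and Plin4 (0.23, SE 0.12, limma, adjusted p = 0.296) were not past the limits in this comparison. The Adipoq difference lost its call without any 1 of MI cKO replicates 2 and 3, sham cKO replicates 1 and 3 and sham fl/fl replicate 3, at -1.21 to -1.78. Without sham cKO replicate 2, Mup15 (-2.91) and Mup16 (-2.14) passed the limits. The groups have no scan in common. With scan as a block, which estimates the scan from the MI fl/fl arrays alone, Adipoq differed by -0.73 and Cfd by -0.08, neither past the limits. Mup16 changed sign, to 0.65. In cKO mice MI and scan cannot be told apart.

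The 2 genotypes were also compared after MI. In MI cKO against MI fl/fl, 4 of the 6 genes were past the limits, all lower, where 4.77% of all probes were past the limits and 1.31% were so and lower. The same 4 did not overlap between the groups, as in 28.5% of all probes. Adipoq (7.5-fold lower), Cfd (1.84-fold) and Mup15 (11.8-fold) were named through this comparison. Without MI fl/fl replicate 2 the log2 difference of Mup15 was -2.46 in place of -3.56. Mup16 was 7.6-fold lower (log2 difference -2.93, SE 1.04, limma, adjusted p = 0.195). It was named through MI fl/fl against sham fl/fl, which uses the same MI fl/fl arrays, and its probe may share signal with Mup15. Its value here is therefore not independent of the naming. Without MI fl/fl replicate 2 the Mup16 difference was -1.87, and without MI cKO replicate 3 it was -2.69, neither past the limits. Scd1 (-0.20, SE 0.25, limma, adjusted p = 0.717) and Plin4 (-0.16, SE 0.12, limma, adjusted p = 0.532) were not past the limits.

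Scan 1 put MI fl/fl replicate 3 beside all 3 cKO infarct arrays. Against this single array the differences within the scan were -2.24 for Adipoq, -0.51 for Cfd, -2.45 for Mup15 and -1.78 for Mup16. All were smaller than over all arrays and had the same direction, and with scan as a block none of the 6 genes was past the limits. For MI fl/fl against sham fl/fl within scan 2, 2 arrays against 3, the differences were 2.74 for Adipoq, 0.76 for Cfd, and 0.93 for Scd1, none smaller than over all arrays. There the MI fl/fl arrays were all in row 2 and the sham fl/fl arrays all in row 1, so MI and row cannot be told apart.

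**Figure D2:**
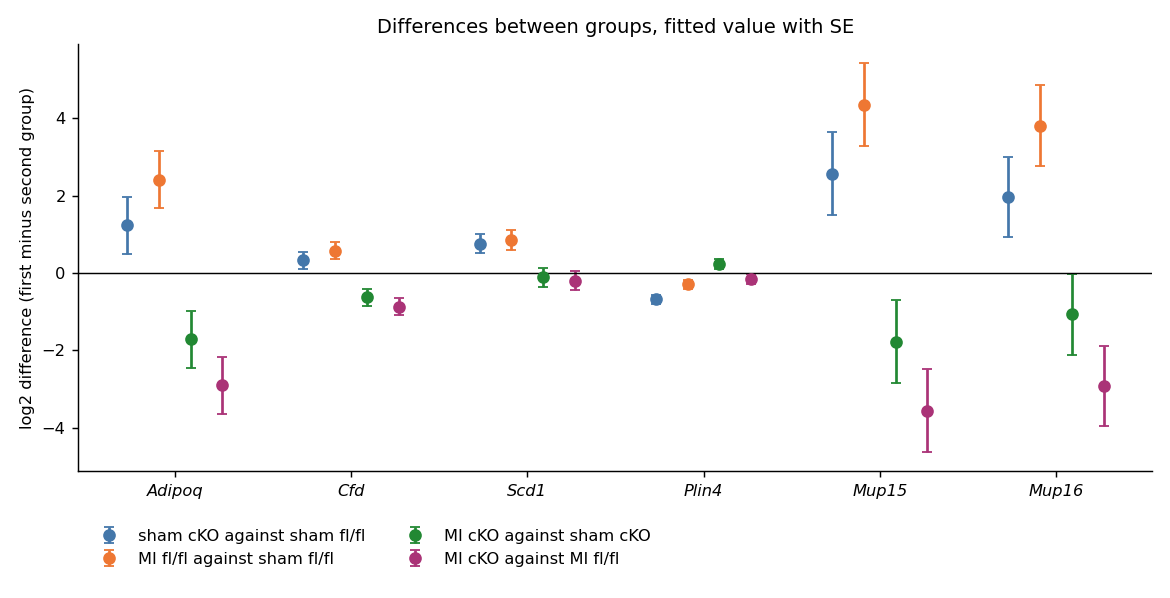
Fitted log2 difference (y axis, first minus second group) with its SE for each gene (x axis) in the 4 comparisons, each of 3 arrays against 3. Adipoq, Cfd, Mup15 and Mup16 lie above 0 for MI against sham in fl/fl and below 0 for MI against sham in cKO, and the comparisons share arrays; the Mup15 differences against sham fl/fl use values not well above background.

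How the change after MI differed between genotypes was given by the interaction, the change in cKO minus that in fl/fl. It is made of the same 4 groups that named the genes and is not independent of the naming. The fitted interaction was -4.14 for Adipoq (SE 1.05), -1.21 for Cfd (SE 0.32), -0.96 for Scd1 (SE 0.35) and 0.52 for Plin4 (SE 0.17) on the log2 scale. For Mup15 it was -6.14 (SE 1.51) and for Mup16 -4.88 (SE 1.47), both resting in part on sham arrays where the probe was not well above background. Of the 6 genes, 5 were past the limits, all but Plin4, where 6.86% of all probes were. Every MI array of Adipoq, Cfd, Mup15 and Mup16 lay above the sham mean in fl/fl and below it in cKO, as in 4.69% of all probes, and every MI array of Plin4 lay below it in fl/fl and above it in cKO, as in 7.95%. No probe of the array had a limma adjusted p under 0.05 (7285 had an unadjusted p under 0.05).

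**Figure D3:**
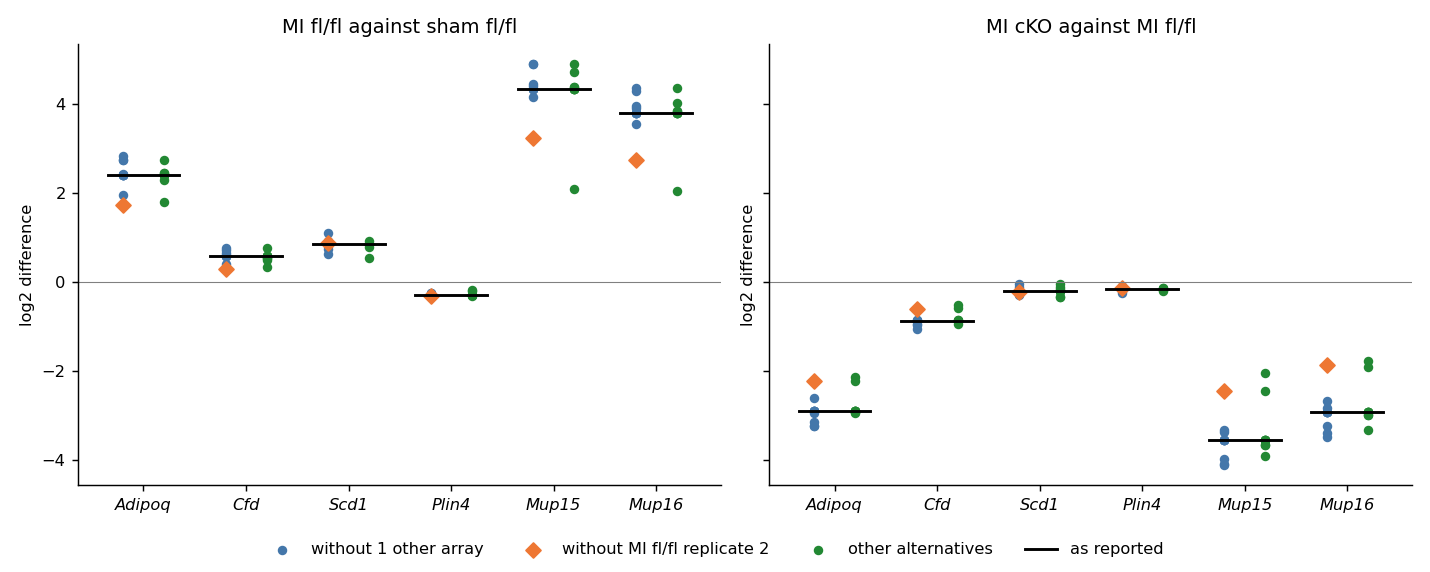
Log2 difference of each gene (x axis) as reported (black line), with each array left out in turn (blue, and orange for MI fl/fl replicate 2) and under the other processing alternatives (green), for the 2 comparisons that contain the MI fl/fl arrays. Without MI fl/fl replicate 2 the Adipoq, Mup15 and Mup16 differences shrink and keep their direction, for example Adipoq from -2.91 to -2.24 in MI cKO against MI fl/fl.

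Mice of the same group differed widely in 3 of the genes. The SD within groups was 1.49 on the log2 scale for Mup15, 1.45 for Mup16 and 1.03 for Adipoq, against a median of 0.19 over all probes tested. The values for Mup15 and Mup16 include arrays where the probe was not well above background. For Adipoq, 368 probes had a larger SD within groups. Scd1 (0.33) and Cfd (0.30) stood at the 78.8th and 74.1st percentiles and Plin4 (0.14) at the 26.8th.

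The high and low mice were largely the same for Adipoq, Mup15 and Mup16. After the group mean was taken from each array, Adipoq and Mup15 deviated in the same direction on 11 of 12 arrays, with a Pearson r of 0.91 and a Spearman rho of 0.90. Without the 2 arrays farthest from the Adipoq median the Pearson r was 0.82. For Adipoq and Mup16 the values were 0.91, 0.91 and 0.81. For Adipoq and Cfd they were 0.76, 0.83 and 0.80, also with the same direction on 11 of 12 arrays, although the Cfd deviations were small. These are descriptions over 12 arrays whose deviations sum to 0 in each group, 15 pairs of genes were examined, and no test is attached.

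Plin4 and Scd1 followed Adipoq less closely. The Pearson r of deviations with Adipoq was 0.02 for Plin4 and 0.40 for Scd1, each in the same direction on 6 of 12 arrays. With Mup15 it was 0.18 for Plin4 and 0.24 for Scd1. For Cfd and Scd1 the Pearson r was 0.47 and the Spearman rho 0.59, with a Pearson r of 0.70 without the 2 farthest arrays.

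**Figure D4:**
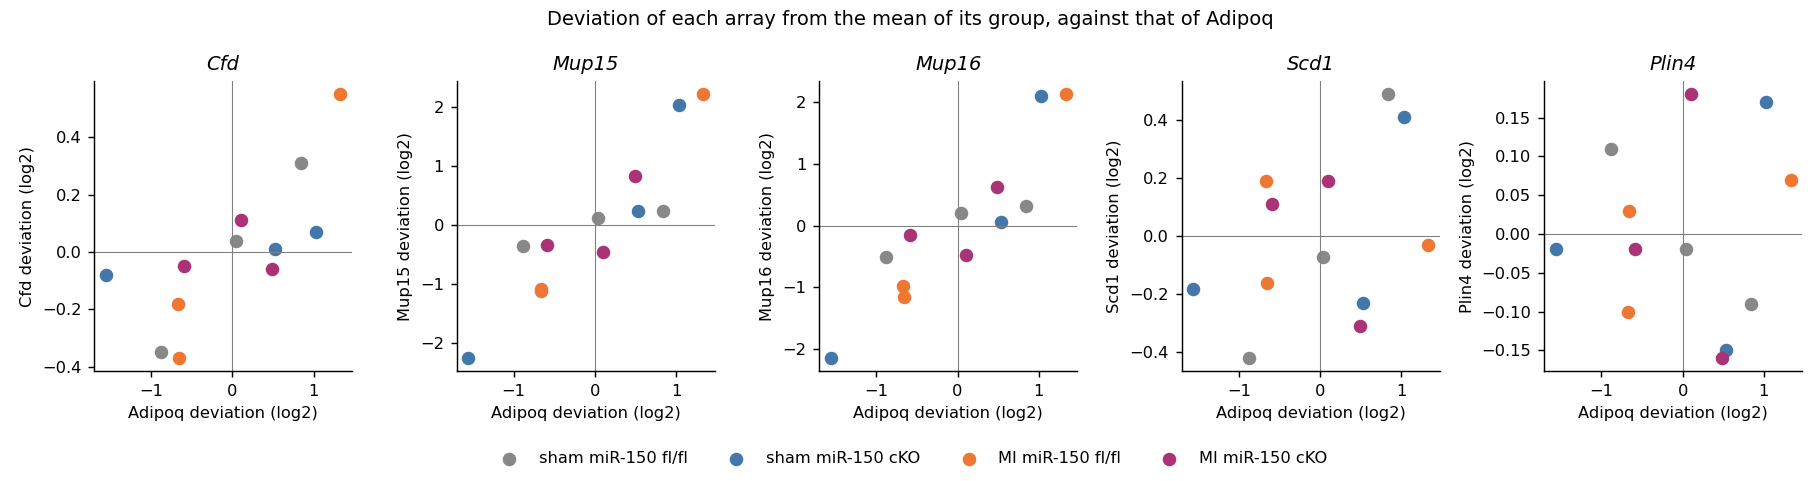
Deviation of each array from the mean of its own group (log2, y axis) for 5 genes against the deviation of Adipoq (log2, x axis), with 12 arrays coloured by group. Mup15 and Mup16 lie along a diagonal (Pearson r of 0.91 each), Cfd follows over a smaller range, and Scd1 and Plin4 show no such line.

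Every group held 1 male, so sex could be examined across groups, a comparison chosen after the data had been seen. The male had the lowest Adipoq level in 4 of 4 groups, as was so for 2.24% of all probes, although in MI fl/fl the margin was only -0.51 against -0.50. In a limma fit with sex beside the 4 groups, Adipoq was higher in females by 1.39 on the log2 scale (SE 0.37, 8 females against 4 males), which is 2.63-fold, with an adjusted p of 0.625. It stayed between 1.08 and 1.62 when each array was left out in turn. Adipoq was thus past the limits, where 1.43% of all probes were past them and higher in females.

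With all 12 arrays none of the other 5 genes was past the limits for sex. Among the 12 fits with 1 array left out, Mup15 passed them in 4 and Mup16 in 3. The differences in these 12 fits ran from 0.90 to 1.85 for Mup15 and from 0.82 to 1.81 for Mup16. With all arrays, Mup15 (1.52, SE 0.68, limma, adjusted p = 0.66) and Mup16 (1.42, SE 0.67, limma, adjusted p = 0.66) had differences of similar size to Adipoq, but with larger errors and with the male lowest in only 2 of 4 groups, both sham. For Cfd (0.25, SE 0.16, limma, adjusted p = 0.73), Scd1 (0.11, SE 0.19, limma, adjusted p = 0.911) and Plin4 (0.01, SE 0.09, limma, adjusted p = 0.988) the differences were smaller. With the 8 female arrays alone, the Adipoq difference was -2.95 for MI cKO against MI fl/fl, close to the -2.91 over all arrays.

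Few other genes of fat, lipid metabolism or the liver have a named probe. Of 25 adipocyte genes listed, the 4 members are the only ones named, and Plin1, Fabp4, Cidec, Lep and Pparg are not analysed here, so a fat cell signature cannot be checked beyond these 4. Of 10 brown fat genes 2 were named. Dio2, the deiodinase that activates thyroid hormone, had group means of 0.35 in sham and 1.23 in MI fl/fl and of 1.58 in sham and 2.12 in MI cKO, an order unlike that of Adipoq. Cox7a1, a muscle and brown fat subunit of cytochrome c oxidase, had group means of 7.87 to 8.44, lowest in MI cKO. Dio2 was named through MI fl/fl against sham fl/fl and Cox7a1 through MI cKO against MI fl/fl, so these orders are descriptions.

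Of 20 genes of fatty acid and triglyceride synthesis, Acsl5 was named besides Scd1. Acsl5, which activates long-chain fatty acids, had a mean log2 level of 1.22 in sham and 1.78 in MI fl/fl, and of 1.46 in sham and 1.28 in MI cKO. In MI cKO against MI fl/fl it was lower by 0.50 (SE 0.14, limma, adjusted p = 0.126), under the fold limit. It was named through MI fl/fl against sham fl/fl, which uses the same MI fl/fl arrays. Of 13 lipid droplet genes and 9 alternative complement genes, Plin4 and Cfd were the only ones named, and 0 of 8 adiponectin and nuclear receptor genes were.

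Markers of other tissues were as sparsely named. Of 10 hepatocyte genes only Ttr was, and its group mean was lowest in MI fl/fl (-1.36 ± 0.13, SD, n = 3) and highest in MI cKO (-0.79 ± 0.20). Of 8 skeletal muscle genes only Tnnt3 was, with group means of -4.99 in sham and -2.75 in MI fl/fl, and -3.72 in sham and -3.31 in MI cKO, and like Mup15 it was not well above background on any sham fl/fl array. The order of Ttr is a description, since it was named through MI cKO against MI fl/fl. The same holds for Tnnt3, named through MI fl/fl against sham fl/fl and through sham cKO against sham fl/fl. None of 8 mesothelial and epicardial genes was named. The cardiomyocyte genes Tnnt2, Myh7 and Nppa, 3 of 10 listed, were well above background on all 12 arrays. Fibroblast genes, 5 of 10 named, had a median difference of 1.65 for MI against sham in fl/fl and 0.85 in cKO, with no sign change between genotypes. All 5 were named through MI against sham in fl/fl and none through it in cKO, so these medians are not like for like. In sham cKO against sham fl/fl the median difference of the fibroblast genes was 0.77, and 3 of the 5 were past the limits and higher. The 3 leukocyte genes named of 11, Lyz2, Emr1 and Cd14, were all past the limits and higher there, with a median difference of 0.75. These 3, and 2 of the 3 fibroblast genes past the limits, were named through that comparison, so the counts are a description. Over all probes, 0.636% were past the limits and higher there. Only genes listed as changed can have a name, so the counts cannot show how these cell types changed. What part other cells or tissue collected with the ventricle had in the Adipoq, Scd1 and Mup values was not tested.

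Among named probes, the level over 12 arrays most like that of Adipoq was that of Mup15 (Pearson r = 0.94), then Ces1f (0.93), a carboxylesterase, and Mup16 (0.92). For Mup15 and Mup16 the nearest were each other (0.99), Mup19 (0.98 with both) and Adipoq. Cfd was most like Neurl3 (0.94), Arf5 and Oas1h (0.92 each), Scd1 most like Lrrc17 (0.93), Anxa1 and Dpt (0.88 each), and Plin4 most like Lrrc52 (0.77). Over all probes, 19 had a Pearson r above 0.9 with Adipoq (0.0352%), 6 with Mup15 and none with Plin4, and the probe nearest to Adipoq, ASMM10P024848 (r = 0.97), has no gene name here. These likenesses are descriptions over 12 arrays that share group differences and scans.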

How the data were processed

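LV RNA from 12 mice was labelled with Cy3 and hybridized to 12 one-colour Agilent arrays of 62939 spots. The authors deposited the spot intensity from Agilent Feature Extraction 11.0.1.1 on a linear scale, after background subtraction but before any normalization between arrays. A deposited table of log2 values has near-equal quartiles on all arrays. How these were normalized is not given in the sources used here. Intensities were taken to log2 and each array's 75th percentile was subtracted. Flagged spots (435) were treated as missing and 0 spots were saturated. Of 60819 probes, 6587 were left out because they were well above background on fewer than 3 arrays. The 4 group means were fitted in R 4.3.3 by limma 3.58.1 (10.4 degrees of freedom), with files read by the package data.table (1.17.8), and p values were adjusted over the 54232 probes by the Benjamini-Hochberg method. An exact permutation test of 3 arrays against 3 has 0.1 as its smallest p. The fit was tested on simulated data. Other steps used Python 3.11.15, pandas 2.3.3, scipy 1.17.1, Biopython 1.88 and matplotlib 3.10.9. Named genes are the 6 members, other named genes of the fat, lipid, complement and Mup lists, and the 3 named probes most correlated with each member, with a marker gene of another tissue given where it had a name. The members and lists were chosen with earlier results of these data known. Alternatives were quantile normalization, normexp with an offset of 50, the authors' log2 values, 2 other filters, fits of only the groups compared, the methods' test, sex as a covariate, replicate number or scan as a block, each array left out and, added after seeing the data, female arrays alone.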

Additional observations from a re-analysis of the deposited data

Results flagged for a closer look

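For 5 genes every MI array lay on one side of the sham mean in fl/fl and on the other side in cKO. The MI arrays of Adipoq, Cfd, Mup15 and Mup16 lay above the sham mean in fl/fl and below it in cKO, as in 4.69% of all probes, and their fitted interactions on the log2 scale were -4.14, -1.21, -6.14 and -4.88. The MI arrays of Plin4 lay below it in fl/fl and above it in cKO, as in 7.95% of all probes, with an interaction of 0.52. The difference from sham was not past the limits for Cfd in fl/fl, for Mup15 and Mup16 in cKO, or for Plin4 in either genotype. The interaction was tested in limma and the adjusted p was 0.214 for Adipoq, 0.223 for Cfd, 0.209 for Mup15, 0.253 for Mup16 and 0.27 for Plin4. The arrays are those that named the genes. With scan as a block the interaction was -3.47 for Adipoq, -0.84 for Cfd, -5.02 for Mup15, -3.74 for Mup16 and 0.49 for Plin4, and the Mup16 difference from sham in cKO became 0.65. What the scan contributed cannot be told apart from MI in cKO.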

How the results depend on the processing

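Of 740 differences of single genes recomputed under the alternatives, 671 kept their direction and their side of the limits, 37 lost their place past the limits, 23 gained one and 9 changed sign. The sign changed for Mup16 in MI cKO against sham cKO with scan as a block (0.65), and for Scd1 in the same comparison with scan as a block (0.12), and without either MI cKO replicate 1 (0.04) or sham cKO replicate 3 (0.09); with each array left out it ran from -0.23 to 0.09. It also changed for the difference between females and males of Scd1 without sham fl/fl replicate 1 (-0.06) and of Plin4 without MI cKO replicate 3 (-0.03), sham cKO replicate 3 (-0.02), MI fl/fl replicate 1 (-0.04) or replicate 2 (-0.0032), all near 0, and with each array left out these ran from -0.06 to 0.24 for Scd1 and from -0.04 to 0.07 for Plin4. The cause was not tested.

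The number of the 6 genes past the limits was 3 for sham cKO against sham fl/fl, 4 for MI against sham in fl/fl, 2 for MI against sham in cKO, 4 for the genotypes after MI and 5 for the interaction. Over all probes the shares past the limits were 2.75%, 1.25%, 6.35%, 4.77% and 6.86%, in the same order. Plin4 in the first count, all genes of the second, and Adipoq, Cfd and Mup15 in the fourth were named through that comparison. The other calls rest on arrays shared with the naming, so the counts are descriptions. With normexp it was 1 for the first and 1 for the third, and with the methods' unpaired test 1 for the first and 1 for the third. Probes past the limits also became fewer over the whole array. For the first comparison 345 were higher and 1148 lower, against 134 and 207 with normexp and 104 and 308 with the unpaired test. For the third, 2495 and 951 became 920 and 411 with normexp and 1476 and 793 with the unpaired test. With only probes well above background on all 12 arrays, a filter that leaves out Mup15 and Mup16, the number of genes was 2 for the second, 2 for the fourth and 3 for the interaction. With scan as a block the number of genes was 5 for the second, 0 for the third, 0 for the fourth and 3 for the interaction. Over all probes, 478 higher and 198 lower then became 649 and 390 for the second, and 2495 and 951 became 1420 and 1186 for the third. For the fourth, 1873 and 712 became 625 and 762, and for the interaction 2386 and 1334 became 1481 and 1054. Leaving out each array in turn gave 1 to 5, 4 to 5, 1 to 4, 3 to 4 and 5 to 6 of the 6 genes. Replicate numbers were not taken to pair the samples. Of 18 same-numbered pairs, 6 had a correlation of deviations above 0.1 (range -0.273 to 0.274), and differently numbered pairs ran from -0.414 to 0.345. Deviations sum to 0 in each group, so these correlations cannot decide whether the samples were paired. With replicate number as a block the counts of genes past the limits were 2, 4, 1, 4 and 5.

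Signal over background limits Mup15 and Mup16, where normexp gave 2.09 in place of 4.35 for Mup15 in MI against sham in fl/fl. With normexp 2400 of all probes passed an adjusted p of 0.05 for the genotypes after MI, against 1 in the fit as reported. Other settings changed this number too. It was 304 with sex as a covariate, 295 with only probes well above background on all 12 arrays and 80 with scan as a block. Adipoq and Cfd, named through this comparison, each had a lowest limma adjusted p of 0.0457 over the alternatives. In the fit as reported it was 0.108 and 0.107.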
